A study of Homo sapiens with 14 samples.

Results

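Distal acetylated FLI1 sites in TC-32 cells were examined, defined as binding sites that lay away from protein-coding gene starts, carried the active histone mark H3K27ac and had no run of GGAA units at the point of highest signal. The members were chosen by measured values: rows of the FLI1 peak list of set A replicate 1 on the autosomes and X that overlapped a row in each of the other 3 FLI1 lists, lay over 5 kb from every protein-coding transcript start, held no run of 4 or more GGAA or TTCC units within 250 bp of the summit, and overlapped an H3K27ac row of either replicate. Of the 35210 rows of that list, 16804 were in all 4 FLI1 lists, 8602 of these were distal, 7818 of these had no run at the summit, and 1693 of these overlapped H3K27ac and are the members. Presence in the FLI1 and H3K27ac lists, and the values in those lists, were therefore used in the selection and are given as a description without a test. The members were set beside 6125 distal FLI1 sites that passed the same steps but overlapped no H3K27ac row (distal unacetylated sites) and, for levels and H3K9me3, beside 207 distal acetylated sites with a run at the summit.

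TC-32 is an established, untreated Ewing sarcoma cell line, labelled WT, and all groups come from it. Chromatin was profiled by CUT&RUN, in which an antibody directs a nuclease to its target and the released DNA is sequenced, in 14 libraries: FLI1, H3K27ac and IgG with 2 replicates each in set A, and FLI1, H3K9me3, H3K27me3 and IgG with 2 replicates each in set B. The labels explain neither the set letters nor whether replicates were separate cultures, so the spread between libraries may be technical. Of 8 Ewing sarcoma marker genes, 5 had a FLI1 row in all 4 lists within 1 kb of a start (NKX2-2, NR0B1, CCND1, BCL11B and STEAP1), against 1 of 20 haematopoietic and endothelial markers (LMO2). An H3K27ac row lay as close to 1 of the 8 and 0 of the 20. The share of all protein-coding genes with such rows was not counted, so nothing about cell identity is read from these counts.

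Ewing sarcoma cells express the fusion EWSR1::FLI1, which joins a part of EWSR1 that recruits co-activators to the DNA-binding domain of FLI1, a transcription factor of the ETS family. ETS factors read a GGAA core, best within the octamers CCGGAAGT and CAGGAAGT, and the fusion also occupies microsatellites of repeated GGAA units, where it is known to create enhancers. H3K27ac marks active enhancers and promoters, whereas H3K9me3 and H3K27me3 mark repressed chromatin. AP-1, the dimer of FOS and JUN proteins, binds TGANTCA and is a known partner of ETS factors at enhancers.

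Not all members were free of microsatellites. The rule counted only units inside the 250 bp on each side of the summit, and 109 of the 1693 members held in the row a run of 4 or more units that lay beyond that window or crossed its edge, 6.44%, against 3.61% of all rows of the anchoring list and 3.69% of the distal unacetylated sites (226 of 6125). The longest run in these 109 members ranged from 4 to 27 units with a median of 12, and the nearest run lay 236 to 1830 bp from the summit (median 282 bp). In 94 of the 109 it came within 500 bp, and in 18 its nearest edge was no more than 250 bp away, so that it reached into the window with fewer than 4 units. The label "without microsatellite" thus holds for 1584 members over their whole length, and results that differ between these and the other 109 are given for both.

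**Figure D1:**
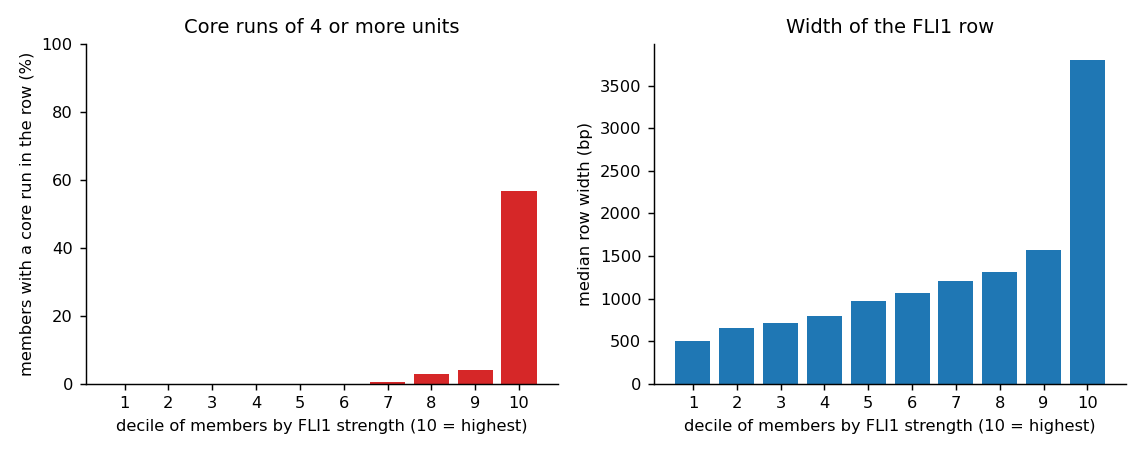
Members were split into deciles by their mean percentile of FLI1 fold over the 4 lists (horizontal axes), and the bars give the percent of members with a core run of 4 or more units anywhere in the row (left) and the median row width in bp (right). Runs were present in 0 members of the 6 lowest deciles and in 56.8% of the highest, where the median width was 3798 bp.

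The sequences of named members are shown from hg38, plus strand, to let the kinds of site be compared. In the members nearest to CCND1 (cyclin D1) and SH3RF2 (a ubiquitin ligase), the longest run, in capitals, began 305 and 264 bp from the summit of set A replicate 1, at chr11:69622140-69622229 and chr5:146002457-146002550:
CCND1: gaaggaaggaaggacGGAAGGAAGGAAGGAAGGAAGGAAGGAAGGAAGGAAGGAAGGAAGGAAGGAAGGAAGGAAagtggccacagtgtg
SH3RF2: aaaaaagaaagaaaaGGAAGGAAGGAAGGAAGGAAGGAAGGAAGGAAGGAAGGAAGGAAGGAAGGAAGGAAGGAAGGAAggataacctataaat
The first is a run of 15 units and the second a run of 16, with 0 ETS octamers in either stretch.

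The member nearest to CRYBA4, in an exon of the lncRNA genes MIAT and MIATNB, held another kind of repeat. Its 300 bp window around the summit, chr22:26672724-26673023, is shown because it held the densest set of ETS octamers among the members; the 6 octamers in it are in capitals:
CRYBA4: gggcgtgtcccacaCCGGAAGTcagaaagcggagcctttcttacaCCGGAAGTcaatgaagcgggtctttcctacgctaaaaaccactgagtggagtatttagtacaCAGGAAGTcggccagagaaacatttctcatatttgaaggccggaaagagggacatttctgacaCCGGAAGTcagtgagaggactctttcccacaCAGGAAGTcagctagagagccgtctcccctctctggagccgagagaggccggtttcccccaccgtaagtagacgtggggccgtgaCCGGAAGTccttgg
Successive octamer starts here lay 31, 62, 63, 31 and 85 bp apart, the longest run of cores in the row was 2 units, and the whole row held 8 octamers. It was the member with the highest fold in either set A list: 347 and 384.5 in set A replicates 1 and 2, and 43.0 and 70.1 in set B replicates 1 and 2, with the 4 summits within 2 bp. Among the other members, 1 held 3 octamers within 250 bp of the summit, 14 held 2, 220 held 1 and 1457 held 0.

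Most members with octamers held a single copy beside the summit, and 4 are shown as the members of highest FLI1 percentile whose set A summits lay 200 to 500 bp apart with an octamer within 50 bp of their midpoint and no run in the row. The octamer is in capitals, read here on the plus strand at chr1:51433779-51433838, chr6:131368591-131368650, chr6:13913144-13913203 and chr18:74995029-74995088:
EPS15: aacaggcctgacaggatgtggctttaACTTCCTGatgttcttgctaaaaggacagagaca
ARG1: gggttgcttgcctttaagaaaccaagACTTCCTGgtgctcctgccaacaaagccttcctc
RNF182: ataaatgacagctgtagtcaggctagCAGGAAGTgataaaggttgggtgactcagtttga
ZNF407: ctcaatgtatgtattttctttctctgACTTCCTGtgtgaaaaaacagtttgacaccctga
Relative to the start of that octamer, the summits at EPS15 were at 158 and -122 bp in set A and at 214 and 206 bp in set B. At ARG1 they were at -211 and 158 bp in set A and at -211 and 123 bp in set B. At ZNF407 they were at 221 and -251 bp in set A and at 225 and 217 bp in set B, and at RNF182 at -198 and 235 bp in set A and at 798 and 208 bp in set B. The choice of these members places their set A summits on opposite sides of the octamer. The set B summits also lay on opposite sides at ARG1, and on the same side at the other 3. The octamer of ZNF407 lay outside the row of set A replicate 1.

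A further 4 members show an octamer within 20 bp of an AP-1 motif, taken in order of mean FLI1 percentile among those with no run in the row. Both motifs are in capitals, at chr6:14877287-14877336, chr2:23550275-23550337, chr1:152048243-152048286 and chr2:28275044-28275108:
JARID2: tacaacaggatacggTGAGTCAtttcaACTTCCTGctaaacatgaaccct
KLHL29: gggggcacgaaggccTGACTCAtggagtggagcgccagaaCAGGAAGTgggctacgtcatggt
S100A11: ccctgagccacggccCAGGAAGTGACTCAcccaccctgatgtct
FOSL2: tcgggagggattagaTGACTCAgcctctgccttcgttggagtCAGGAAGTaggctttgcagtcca
The motifs were 5, 18 and 20 bp apart at JARID2 (an accessory subunit of the Polycomb complex PRC2), KLHL29 and FOSL2 (an AP-1 subunit), and at S100A11 they shared a base. FLI1 fold at S100A11 was 17.0 and 16.8 (set A) and 20.1 and 24.1 (set B). At KLHL29 it was 11.05 and 30.003 (set A) and 30.6 and 37.9 (set B). Such close pairs were found in 16 members (0.945%) and in 40 distal unacetylated sites (0.653%), and any octamer with any AP-1 motif within 250 bp of the summit in 55 members (3.25%) and 220 unacetylated sites (3.59%).

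FLI1 signal at the members covered a wide range in every library. The fold, the authors' peak signal over the IgG control, ran from 2.81 to 347 in set A replicate 1 with a median of 9.26, and from 2.64 to 384.5 in set A replicate 2 with a median of 10.2. In set B it ran from 3.17 to 99.1 in replicate 1 with a median of 10.8, and from 3.11 to 80.5 in replicate 2 with a median of 9.36. Since fold depends on each library and its IgG control, members were ranked within each list: their median percentile was 69.1 and 75.8 (set A) and 68.6 and 61.8 (set B).

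The members without a run had levels close to those of the unacetylated sites, and the 109 with a run resembled sites with a run at the summit. Median fold in members without a run was 8.93 and 9.67 (set A) and 10.4 and 9.09 (set B). The distal unacetylated sites had medians of 9.14 and 10.0 (set A) and 10.2 and 8.87 (set B). In members with a run the medians were 59.2 and 73.9 (set A) and 28.4 and 23.4 (set B), next to 65.8 and 79.9 (set A) and 31.4 and 26.1 (set B) at the distal acetylated sites with a run at the summit. The row of set A replicate 1 was 5361 bp wide at the median in members with a run, 935 bp in members without, and 837 bp in unacetylated sites.

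**Figure D2:**
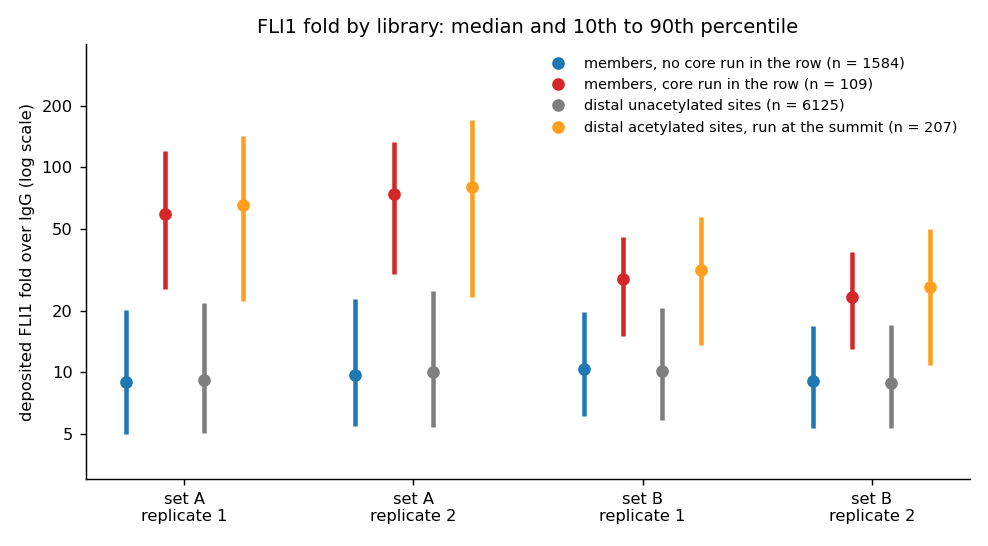
Points give the median deposited FLI1 fold over IgG (log axis) and bars the 10th to 90th percentile of sites, for 4 groups of sites in each of the 4 FLI1 libraries. Members without a run (medians 8.93 to 10.4) lie level with distal unacetylated sites, and members with a run (medians 23.4 to 73.9) lie level with sites that have a run at the summit.

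Of the 12 members with the highest mean percentile, 10 held a run. They lay nearest to CHN2 (a Rac GTPase-activating protein; 12 units), SH3RF2 (16), MYT1L (a neuronal transcription factor; 17), XCL2 (a chemokine; 13), PTPN22 (a lymphoid phosphatase; 18), CCND1 (15), VRK1 (a nuclear kinase; 12), GIP (an incretin hormone; 12), OPCML (a cell adhesion molecule; 8) and DNAH9 (an axonemal dynein; 12). CHN2 had folds of 180 and 182 (set A) and 96.6 and 45.4 (set B), and its nearest run lay 1669 bp from a summit that the 4 libraries placed within 3 bp. CCND1 had folds of 127 and 141 (set A) and 53.1 and 32.6 (set B), and its member at chr11:69619166-69626711 lay in intergenic sequence 19306 bp from the gene's start. VRK1 had folds of 157 and 247 (set A) and 39.0 and 35.3 (set B) over the widest row of all, 16610 bp. The other 2 of the 12 were the CRYBA4 member and a member in an intron of HDAC4, a class IIa histone deacetylase. Of the 12, the XCL2, CRYBA4 and HDAC4 members overlapped the H3K27ac list of replicate 2 alone, and the others overlapped both lists.

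The HDAC4 member, at chr2:239266834-239268355, had folds of 58.4 and 63.2 (set A) and 66.3 and 45.5 (set B), with 4 summits within 13 bp and 0 ETS octamers in the row. Other strong members without a run, taken in order of mean percentile after the values were seen, lay nearest to ZNF696, in an exon of the lncRNA gene MINCR, nearest to CFAP126 in another lncRNA exon, in introns of FAM178B and BCL2L1, which encodes the anti-apoptotic protein BCL-XL, and nearest to JARID2 and PZP (a protease inhibitor of plasma). ZNF696 had folds of 44.5 and 71.2 (set A) and 68.7 and 35.7 (set B), and CFAP126 had 79.9 and 76.6 (set A) and 50.7 and 28.8 (set B). BCL2L1 had folds of 31.4 and 34.8 (set A) and 54.4 and 43.3 (set B), and its 4 summits lay within 20 bp. JARID2 had folds of 138 and 150 (set A) but 22.3 and 40.04 (set B), and PZP had 43.6 and 49.8 (set A) and 49.8 and 25.4 (set B). The CFAP126, BCL2L1 and PZP members overlapped both H3K27ac lists. The ZNF696 member overlapped the replicate 1 list alone, and the FAM178B and JARID2 members the replicate 2 list alone. Over all members, the 4 summits fell within 50 bp in 177 members (10.5%) and within 10 bp in 12.

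An ETS octamer within 50 bp of each library's summit was rare. It was found in 0.532% and 1.12% of members in set A replicates 1 and 2 and in 2.60% and 2.30% in set B replicates 1 and 2, and at the unacetylated sites in 0.996%, 1.14%, 2.42% and 2.55% in the same order. The difference, members minus unacetylated, averaged -0.14 percentage points ± 0.28 (SD, n = 4 libraries) with 1 of 4 above 0 (exact sign-flip permutation p = 0.375, adjusted p = 0.5 over 3 tests). AP-1 motifs were in 2.72% and 2.72% of members in set A and in 4.61% and 4.31% in set B, with a mean difference of -0.19 points ± 0.66 and 2 of 4 above 0 (exact permutation p = 0.5, adjusted p = 0.5). GC content was 46.1% and 46.0% (set A) and 50.2% and 50.3% (set B), higher than at the unacetylated sites in 4 of 4 libraries by 0.764 points ± 0.261 (exact permutation p = 0.125, adjusted p = 0.375). With 4 libraries the smallest two-sided p is 0.125, so no difference could pass, and the libraries share the same sites. Anchored on set A replicate 2 without set A replicate 1, the octamer share was 1.16%.

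The low share at the summit had a spatial pattern. Both motifs were less frequent at the summit than 100 to 200 bp on either side of it. Per 1000 members and 100 bp, octamers averaged 18.5 ± 11.2 (SD, n = 4 libraries) at the summit, 56.9 ± 2.83 at 100 to 200 bp to the left, 30.7 ± 1.45 at the same distance to the right, and 8.20 ± 0.504 at 400 to 500 bp. AP-1 motifs averaged 40.8 ± 11.6 at the summit, 115 ± 7.49 to the left, 62.6 ± 5.39 to the right and 37.9 ± 0.504 at 400 to 500 bp. Left and right refer to genome coordinates, and the left side was higher for both motifs in all 4 libraries. The unacetylated sites had the same shape for octamers (63.6 ± 3.498 to the left and 35.6 ± 1.75 to the right), and lower AP-1 peaks (78.0 ± 5.73 and 56.5 ± 4.05). The cause of this placement was not tested.

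**Figure D3:**
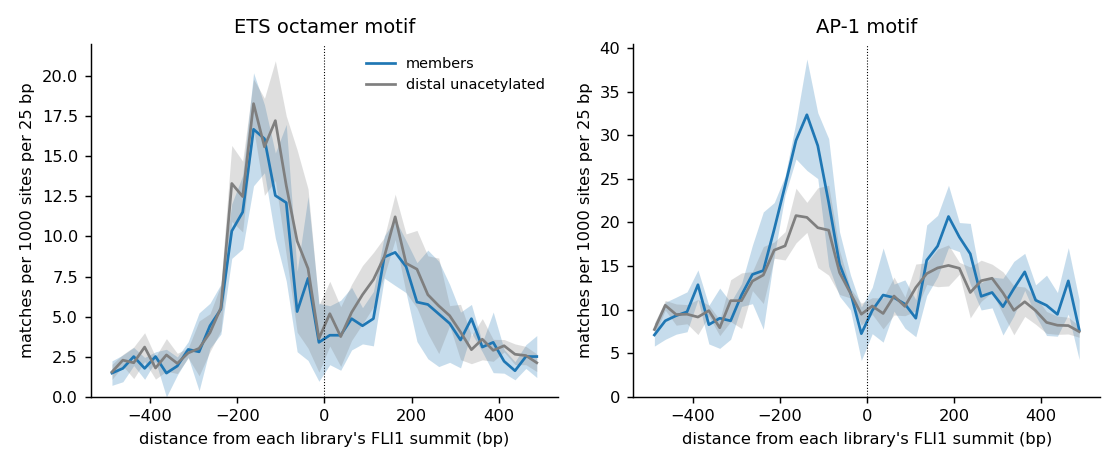
Matches per 1000 sites in 25 bp bins are plotted against distance from each library's own FLI1 summit, as the mean of 4 libraries (line) with 1 SD (band), for ETS octamers (left) and AP-1 motifs (right). Both motifs dip at the summit and peak 100 to 200 bp to either side, and to the left the AP-1 peak of the members (115 per 100 bp) stands above that of distal unacetylated sites (78.0).

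A window of 250 bp each side, which holds these flanks, was chosen after the data were seen. In it AP-1 motifs were in 26.3% and 27.5% of members in set A and in 28.6% and 28.8% in set B, against 23.4%, 23.6%, 25.8% and 25.4% of unacetylated sites in the same order. The members were higher in 4 of 4 libraries, by 3.25 points ± 0.492 (exact permutation p = 0.125, the smallest possible). Octamers were in 13.9% and 13.5% of members in set A and in 15.5% and 15.4% in set B, lower than at the unacetylated sites in 4 of 4 libraries by a mean difference of -1.87 points ± 0.481 (exact permutation p = 0.125). Members without a run, set against unacetylated sites without one, had an AP-1 difference of 3.31 points.

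Other motifs in the same 501 bp windows of set A replicate 1 are given beside windows tiled every 100 kb over the genome, searched on both strands. The octamers were in 13.9% of members, 15.2% of unacetylated sites, 11.5% of all rows of the anchoring list and 2.90% of genome windows. AP-1 was in 26.3% of members and 14.9% of genome windows. The E-box CAGCTG was in 26.6% of members, 25.9% of unacetylated sites and 15.7% of genome windows, and the KLF motif CCACCC in 35.7%, 34.1% and 23.4%. The TEAD motif GGAATG, which contains the ETS core, was in 30.1%, 30.2% and 24.6%. The E-box CAGGTG was in 19.0% of members, 23.3% of unacetylated sites and 30.8% of genome windows, and CCAAT, read by NF-Y, in 46.7%, 53.1% and 54.6%. RUNX motifs (TGTGGTT) were in 9.39%, 11.2% and 9.16%. Over all rows of the anchoring list, AP-1 was in 17.3%, CAGCTG in 23.8%, CCACCC in 36.4% and GGAATG in 26.9%. There CAGGTG was in 24.7%, CCAAT in 50.5% and the RUNX motif in 8.74%. The KLF share of the members was thus no higher than that of all rows. Base composition differed between these windows, with a mean GC of 46.7% in members, 48.8% in all rows and 40.8% in the genome.

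The distance between the summits that 2 libraries gave a member varied widely. Set A replicates 1 and 2 agreed within 50 bp at 849 members (50.1%) and set B replicates 1 and 2 at 892 (52.7%), while set A replicate 1 and set B replicate 1 did so at 513 (30.3%). For that last pair the distance was over 50 and under 200 bp at 504 members (29.8%) and 200 to 500 bp at 496 (29.3%). In those 496, an octamer lay within 75 bp of the midpoint between the summits in 46 (9.27%), within 75 bp of the set A summit in 3 (0.605%) and within 75 bp of the set B summit in 23 (4.64%). AP-1 motifs lay there in 68 (13.7%), 26 (5.24%) and 37 (7.46%). In the 308 members with set A summits 200 to 500 bp apart, the octamer counts were 26 at the midpoint and 3 and 8 at the summits of replicates 1 and 2.

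**Figure D4:**
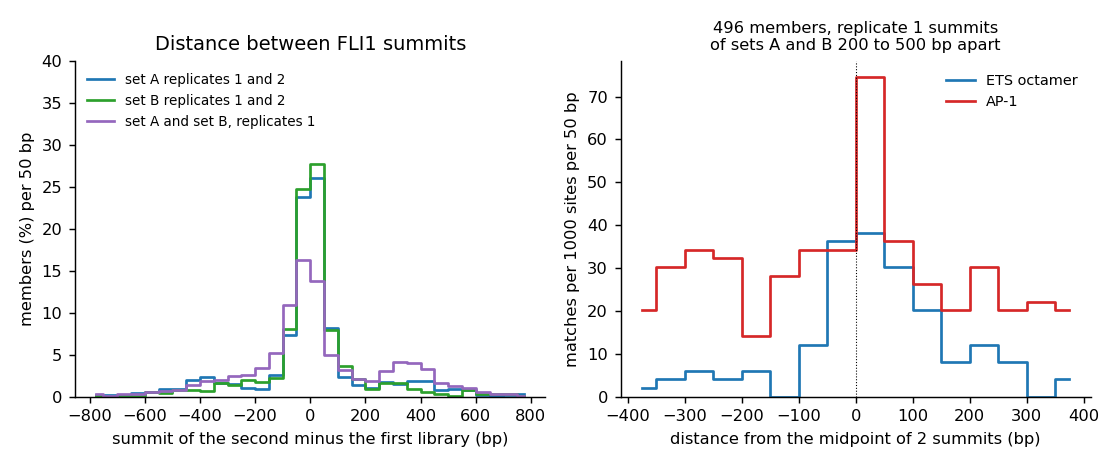
The left panel gives the percent of members per 50 bp of distance between the FLI1 summits of 2 libraries, and the right panel the matches per 1000 sites per 50 bp around the midpoint of the summits for 496 members whose set A and set B replicate 1 summits lay 200 to 500 bp apart. Replicates within a set share a peak at 0 (50.1% and 52.7% within 50 bp), and octamers are highest around the midpoint.

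The H3K27ac evidence was uneven between replicates. Of the 1693 members, 672 (39.7%, exact binomial 95% interval 37.4 to 42.1) overlapped both lists, 741 (43.8%) the replicate 2 list alone and 280 (16.5%) the replicate 1 list alone, from lists of 13974 and 23368 rows. Without replicate 2, 952 members remained, and without replicate 1, 1413. Of all 35210 rows of the anchoring list, 20.3% overlapped an H3K27ac row, and of the 7818 distal shared sites without a run the 1693 members are the part that did. The H3K27ac fold at members ran from 3.66 to 11.4 with a median of 5.04 in replicate 1. In replicate 2 it ran from 3.03 to 9.92 with a median of 5.05. Medians over all rows of these lists were 4.91 and 4.84, and the members' median percentile within them was 55.0 and 58.1. The median −log10 q was 3.69 and 4.42 at members, next to 3.35 and 4.14 over all rows. A member that overlapped several H3K27ac rows took the values of the row of highest fold, whereas the medians over all rows use every row. The part of this choice in the differences was not tested. A −log10 q of 5 or more was reached at 216 of the 952 (22.7%) and 499 of the 1413 (35.3%).

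FLI1 fold and H3K27ac fold showed next to no rank order in common among the members. Spearman's rho between FLI1 fold and H3K27ac fold lay between -0.0279 and 0.0597 over the 8 pairs of libraries (952 or 1413 members, which share libraries). Both folds come from called rows only, which cuts their low end, so the rho describes called sites alone. The share of distal sites that overlapped H3K27ac lay between 19.4% and 22.6% in the 9 lower deciles of FLI1 strength and was 28.7% in the highest, where rows were widest (median 1912 bp). With H3K27ac rows counted only within 500 bp of the summit, the share in the highest decile was 20.4%, and the range over the deciles was 17.6% to 23.5%. By this count 1448 of the 1584 members without a run (91.4%) and 64 of the 109 with a run (58.7%) had H3K27ac near the summit.

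The 6 members with the highest H3K27ac percentile in both lists comprised a pair in an intron of KIRREL1 (a cell adhesion protein of the nephrin family), and members in introns of FHL3 (a LIM-domain protein) and STK4 (the Hippo kinase MST1) and nearest to SPDYE5 and SESN3 (a stress-induced sestrin). KIRREL1 had H3K27ac folds of 8.76 and 7.94, from an H3K27ac row that both members overlapped. Their FLI1 folds were 3.94 and 5.09 (set A) and 6.15 and 7.43 (set B) at chr1:158016770-158017014, and 19.7 and 18.2 (set A) and 21.9 and 10.3 (set B) at chr1:158019036-158020222. STK4 had H3K27ac folds of 7.45 and 8.20 and FLI1 folds of 3.36 and 6.13 (set A) and 15.1 and 22.9 (set B).

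H3K27ac summits gathered at FLI1 summits. The nearest H3K27ac summit lay within 100 bp of the FLI1 summit at 36.4% and 36.3% of members in set A and at 33.8% and 33.7% in set B (mean 35.0% ± 1.48, SD, n = 4), then at 15.4% ± 1.29 over 100 and up to 200 bp, and 9.41% ± 0.314 over 300 and up to 400 bp. The median distance was 182 and 198 bp (set A) and 200 and 198 bp (set B). Part of this closeness is fixed by the rule, which required overlapping rows. FLI1 and H3K27ac libraries of set A were called against the same IgG libraries and the FLI1 libraries of set B were not. Every member had to have a row in all 4 FLI1 lists, so the shares by set do not separate the part of the shared control. That part was not tested. Of the members in each H3K27ac list, 461 of 952 (48.4%) and 639 of 1413 (45.2%) had the summit of set A replicate 1 inside the overlapping H3K27ac row of highest fold. Other overlapping rows were not counted here. The median distance was 98.5 bp over the 672 members in both lists, and over all members 764 bp to the summits of replicate 1 alone and 314 bp to those of replicate 2 alone. The last 2 values include members without a row in the replicate concerned. To the summits of that replicate alone, the median was 265 bp over the 952 members in the replicate 1 list. It was 235 bp over the 1413 in the replicate 2 list.

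**Figure D5:**
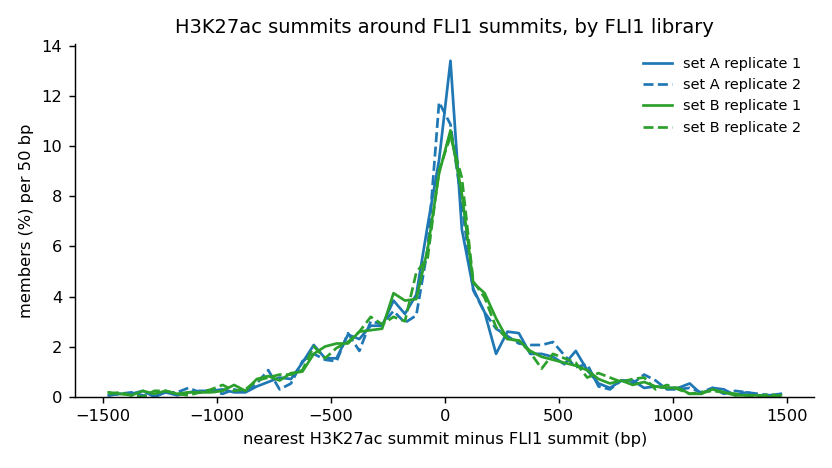
The percent of members per 50 bp is plotted against the position of the nearest H3K27ac summit relative to the FLI1 summit, in bp, with a line for each FLI1 library. The 4 lines peak together at 0, with 33.7% to 36.4% of members within 100 bp.

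H3K27me3 was not found at the members. It overlapped 0 of 1693 in either replicate, which allows a share of up to 0.177%, against 20 (0.327%) and 13 (0.212%) of the 6125 unacetylated sites and 0.560% of all rows of the anchoring list for either replicate. H3K9me3 overlapped 39 members (2.30%, exact binomial 95% interval 1.64 to 3.14) in replicate 1 and 22 (1.30%, 0.816 to 1.96) in replicate 2, and 40 (2.36%) in either, next to 2.18% of all rows of the anchoring list. The share without replicate 1 of H3K9me3 was 1.30%. The H3K9me3 overlap split with the microsatellites: 27 of the 109 members with a run (24.8%) and 13 of the 1584 without (0.821%) overlapped a row of either replicate. At the distal acetylated sites with a run at the summit it was 41 of 207 (19.8%). The rows with a run were wide, and within 500 bp of the summit H3K9me3 overlapped 0 of the 109 and 10 of the 1584 (0.631%), against 108 of the 6125 unacetylated sites (1.76%). In the same window it overlapped 1 of the 207 sites with a run at the summit (0.483%) and 832 of all 35210 rows of the anchoring list (2.36%). These intervals and limits cover counting error only.

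Most members, like most unacetylated sites, lay within genes. The share over all rows of the anchoring list was not counted. The summit fell in an intron of a protein-coding gene in 837 members (49.4%, exact binomial 95% interval 47.0 to 51.9), 724 of them in an intron of the gene with the nearest start, and in a protein-coding exon in 38 (2.24%). It fell in an intron of a lncRNA gene in 238 (14.1%), in a lncRNA exon in 84 (4.96%) and between genes in 496 (29.3%). Among the unacetylated sites 41.2% were in protein-coding introns and 37.5% between genes. The nearest protein-coding start was 36460 bp away at the median and 188153 bp at the 90th percentile, against 50535 and 276431 bp. A lncRNA start lay within 1 kb of 193 members, 11.4%, the same as the 11.4% of all rows of the anchoring list and above the 8.11% of the unacetylated sites.

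The share of distal sites that were acetylated differed between chromosomes. It was 31.5% on chromosome 1 (278 of 882, exact binomial 95% interval 28.5 to 34.7), and below 10% on chromosomes 13 (9.24%, 17 of 184, 5.47 to 14.4), 4 (9.60%, 24 of 250, 6.25 to 13.9) and X (9.63%, 21 of 218, 6.06 to 14.3). H3K27ac overlap was part of the rule, so these shares are a description without a test. The intervals cover counting error only and treat sites as independent, though neighbouring sites can share an H3K27ac row. The number of H3K27ac rows per FLI1 row in the 2 lists was lowest on chromosome 13 (0.114 and 0.245) and highest on chromosome 1 (0.707 and 1.08). Between these extremes, some chromosomes kept the same order by both values and some did not. Chromosome 15 had more rows per FLI1 row (0.549 and 0.894) and a higher acetylated share (27.1%) than chromosome 3 (0.157 and 0.357, 11.2%). Chromosome 22 had more rows (0.445 and 0.695) but a lower share (13.9%) than chromosome 8 (0.365 and 0.624, 25.6%). No measure over all chromosomes was taken. The part of the number of H3K27ac rows in the difference between chromosomes was not tested.

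Some members lay close to one another along the genome. Chaining members no more than 20 kb apart gave 1366 groups, of which 1141 were single members, and 552 members (32.6%) were in groups with company. The same chaining of the more numerous unacetylated sites put 2446 of 6125 (39.9%) in such groups, so nothing particular to the members is read from this share. The largest group was 9 members over 46.7 kb at chr9:123299544-123346219, between STRBP and CRB2 (a polarity protein), with 0 runs, 2 members in both H3K27ac lists and a highest fold of 9.35 and 15.2 (set A) and 21.4 and 26.8 (set B). A group of 8 over 52.3 kb at chr17:48978094-49030366 lay near GIP and IGF2BP1, an oncofetal RNA-binding protein, and 2 of its members held a run. Another 8 lay over 64.5 kb at chr8:127852302-127916822, 115 to 179 kb from the nearest start, that of MYC, in introns and exons of the lncRNA gene PVT1; 0 of the 8 held a run, 4 were in both H3K27ac lists, and fold ran from 3.87 to 20.6 in set A replicate 1 and from 4.95 to 16.7 in set B replicate 2. The other 2 of the 5 largest groups were 7 members in introns of GRK5, a G protein-coupled receptor kinase, and 6 in introns of JAK1, a cytokine receptor kinase, each with 1 member that held a run. MYC was the nearest start of more members than any other gene, 17, followed by KIAA1217 with 12 and LRATD2 and RERE with 10 each. This ranking was not made for the unacetylated sites, so nothing particular to the members is read from it.

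A nearest gene is a label of position, not a target. The members named 1120 of 19618 protein-coding genes (5.71%) as nearest, and the distal unacetylated sites 3173. Of 35 genes described as activated by the fusion, 11 were nearest to a member (CCND1, PRKCB, IL1RAP, CAV1, ID2, VRK1, PTPN13, SOX6, JARID2, DKK2 and TNC) and 19 to an unacetylated site. They took 31 members, of which 5 held a run. The strongest were CCND1 and VRK1, above, and TNC, the matrix protein tenascin-C, with folds of 99.8 and 73.5 (set A) and 26.5 and 38.2 (set B) and a run of 15 units in the row. Each of these 3 members overlapped both H3K27ac lists.

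Of 16 genes described as repressed, 2 were nearest to a member and 6 to an unacetylated site. The 2 were CCN1 and CCN2, matricellular proteins known as targets of YAP and TEAD. The CCN1 member had folds of 8.94 and 7.599 (set A) and 9.66 and 21.8 (set B), and the CCN2 member 4.03 and 7.06 (set A) and 5.31 and 5.56 (set B), with no run in either row and both H3K27ac lists overlapped.

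Of 10 genes of the core regulatory circuit, 3 were nearest to a member (KLF15, RUNX3 and ETV6, all transcription factors) and 9 to an unacetylated site. KLF15 had folds of 59.2 and 57.7 (set A) and 40.7 and 17.2 (set B) with a run of 10 units, and ETV6, an ETS repressor, 9.52 and 9.23 (set A) and 13.5 and 14.4 (set B) without a run. These KLF15 and ETV6 members overlapped the H3K27ac list of replicate 1 alone, and a RUNX3 member that of replicate 2 alone. For adhesion and cytoskeleton genes the counts were 7 of 17 (among them ITGA5, ACTN4 and MYH9) for members and 7 of 17 for unacetylated sites, and the 8 members held 0 runs. The strongest, in an intron of ITGA5, the fibronectin receptor subunit, had folds of 14.9 and 20.3 (set A) and 28.3 and 30.3 (set B), with H3K27ac folds of 5.95 and 7.21.

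Of 15 AP-1 and stress genes, 4 were nearest to a member (JUN, FOS, FOSL2 and GADD45B) and 4 to an unacetylated site, again with 0 runs. The JUN member lay 99145 bp from the start with folds of 15.1 and 24.9 (set A) and 30.3 and 28.2 (set B), and the FOSL2 member, in an intron of BABAM2, had 17.8 and 17.4 (set A) and 13.2 and 22.5 (set B) with an octamer 20 bp from an AP-1 motif, as shown above. Of 20 haematopoietic and endothelial genes, 4 were nearest to a member (PTPRC, KDR, CDH5 and LMO2) and 6 to an unacetylated site, and of 11 housekeeping genes 1 (YWHAZ, a 14-3-3 protein) and 0. The KDR member, near the VEGF receptor gene, had folds of 16.04 and 28.6 (set A) and 19.3 and 19.4 (set B). The JUN and KDR members overlapped the H3K27ac list of replicate 2 alone, and the FOSL2 member both lists. The lists hold 10 to 35 genes each and were compared by count alone.

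The rule's thresholds cut through continuous values. Distance for the rule was taken from the edge of the row, whereas the median, the 90th percentile and the distances of single members to protein-coding starts given above are from the summit. By the edge, the members closest to a gene start were 5009 bp (nearest to ELMO2) and 5047 bp (LEMD2) away, and the closest sites left out were 4996 bp (EEPD1) and 4980 bp (AKR1C3) away. Among distal acetylated sites, 12 with a longest run of 3 units near the summit were members and 18 with a run of 4 were not, and those of highest fold in set A replicate 1 had 116 (LRATD2) and 115 (SDK1) inside and 168 (TENM2) and 90.1 (ASAP1) outside. The smallest overlap with H3K27ac was 1 bp (GLIS3), and the unacetylated sites closest to an H3K27ac row lay 1 bp (KSR1) and 2 bp (MTURN) from it. The overlap was under 100 bp in 88 members (5.20%), and 342 of the unacetylated sites (5.58%) had an H3K27ac row within 1 kb.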

How the data were processed

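The authors deposited 10 peak lists, called library by library with the matching IgG library (set and replicate) as control after removal of duplicates, per the peak names in the files. Cutadapt 4.4, Bowtie2, Picard 2.17.11, MACS2 2.1.1 and hg38 are named in the submitters' processing notes. The fold is the deposited ratio of peak signal to control, and the −log10 p and −log10 q are those of the authors' caller (lowest −log10 q 2.00). The deposited score column was not used, and read depth was not given in the sources used here, so levels were compared as percentiles within a list. Where a row overlapped several rows of another list, the row of highest fold gave its values, with an overlap of at least 1 bp. The H3K27ac lists hold rows with the same interval and several summits.

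Starts, exons and lncRNAs came from GENCODE release 44 and sequences from hg38. Differences in sequence were tested by exact two-sided sign-flip permutation over the 4 FLI1 libraries with Benjamini-Hochberg adjustment over 3 tests. Shares have exact binomial (Clopper-Pearson) 95% intervals, and a count of 0 was given the limit of 3 counts. Both treat sites as independent and cover counting error only. Named members were the 12 of highest mean FLI1 percentile, the 6 of highest H3K27ac percentile in both lists, the 5 largest groups, up to 3 members for each gene list, and those nearest each threshold; the strong members without a run and the printed sequences were chosen after their values were seen. The members and lists were chosen with earlier results of these data known. Alternatives covered the H3K27ac evidence, each library left out, overlap, significance, distance, run length and window; the 250 bp window, the bar on runs anywhere in the row and the fixed 500 bp window were added after the data were seen. The measures were tested on simulated data. Python 3.11.15, numpy 2.4.6, pandas 2.3.3, scipy 1.17.1, pysam 0.24.0 and matplotlib 3.10.9 were used. Reads, spike-in counts and IgG libraries were not analysed here.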

Additional observations from a re-analysis of the deposited data

Results flagged for a closer look

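The AP-1 difference between members and distal unacetylated sites within 50 bp of the summit had opposite signs in the sets: it averaged -0.744 percentage points in set A (-0.760 and -0.728 in replicates 1 and 2) and 0.362 points in set B (0.575 and 0.149). No test of set A against set B was made.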

How the results depend on the processing

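Of 142 alternative values, 110 stayed the same, 29 moved and 3 reversed. Staying the same meant lying within the spread or the interval of the reported value, or keeping its sign. For the member count it meant a ratio to 1693 within a fixed limit, which 1413 and 1978 met and 952 did not. The reversed values were the AP-1 difference, -0.19 points within 50 bp of the summit, which was 1.60 with 150 bp, 3.25 with 250 bp, and 3.31 with 250 bp and no run in the row. The octamer and GC differences kept their signs in all 11 alternatives each, and leaving out a library gave -0.243 to -0.0271 points for octamers, 0.683 to 0.875 for GC and -0.447 to -0.00156 for AP-1. The count of 1693 members was 672 with both H3K27ac lists required, 550 with 50% reciprocal overlap and 491 with a −log10 q of at least 5, and leaving out a library gave 952 (without H3K27ac replicate 2) to 1978. The share in both H3K27ac lists was 35.5% with reciprocal overlap and 19.8% with the stricter q, and 38.0% to 39.7% without a FLI1 library. The octamer share within 50 bp, 0.532%, was 5.91% within 150 bp and 13.9% within 250 bp, and 0.506% to 1.16% with a library left out, highest without set A FLI1 replicate 1. The median distance to an H3K27ac summit, 182 bp, was 98.5 bp with both lists required, 210 bp with reciprocal overlap, 113 bp with the stricter q, 193 bp over 10 kb from starts, 764 and 314 bp from all members, also those without a row there, to the summits of replicates 1 and 2 alone, 170 bp without members that hold a run, and 160 to 265 bp with a library left out. The H3K9me3 share, 2.36%, was 3.27% with both H3K27ac lists required, 1.45% with reciprocal overlap, 4.07% with the stricter q, 1.24% with both H3K9me3 lists required, 0.821% without members that hold a run, 0.591% within 500 bp of the summit, and 1.30% (without H3K9me3 replicate 1) to 2.73% with a library left out. The intron share moved to 46.7% with reciprocal overlap and 51.9% over 2 kb from starts. The H3K27me3 share was 0 in all 18 alternatives. Except where the construction shows it (fewer sites, a wider window), the cause was not tested. No paired analysis was possible because no groups of samples that share replicate numbers were compared; the sequence differences between sets of sites were themselves taken within each library. Depth is unknown, so weak H3K27ac sites near the caller's threshold cannot be told from sites without the mark.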
